A study of Eutrema salsugineum with 2 samples.

Results

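Fatty acids of plant cells are built in the plastid, and 7 genes of their synthesis, desaturation and elongation were followed here in E. salsugineum, a salt-tolerant crucifer. They are the genes whose best A. thaliana hits are CAC2, KAS1, HAD1, MOD1, SSI2, FATA and KCS10, chosen by those hits among the first 1998 rows of a table of the study, with earlier results of these data known. The deposited table holds 17888 genes, each with at least 1 read. The samples were 1 library of the accession Shandong (SH) and 1 of the accession Yukon (YK). Whole rosettes, well watered, were cut at the age of 4 weeks in the middle of the dark period from plants grown with 12 h of light at 22 °C and nights at 20 °C, and each library came from pooled plants (5 in a pool). The labels describe SH as having less rosette biomass, thicker leaves and less drought tolerance than YK. Neither accession was treated. With 1 library per accession no difference has a replicate check, so every interval and test below covers counting error in these 2 libraries and does not compare the accessions.

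In plants, acetyl-CoA carboxylase of the plastid makes malonyl-CoA, and a chain bound to acyl carrier protein (ACP) then grows by repeated rounds of condensation, reduction, dehydration and a further reduction. A soluble desaturase turns stearoyl-ACP into oleoyl-ACP, and thioesterases free the finished fatty acid for export. In the endoplasmic reticulum an elongase complex, whose 3-ketoacyl-CoA synthase (KCS) subunit carries out the condensing step, lengthens part of these acids to the very-long-chain forms used in cuticular wax, cutin and membrane lipids. The roles given for the genes are those of the A. thaliana hits. HAD1 stands for the hit AT2G22230, a 3-hydroxyacyl-ACP dehydratase for which the source of the hits lists no symbol. No other locus among the 1998 with a hit in the sources used here shared its best hit with one of the 7 genes, but hits of the other rows were not used here.

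The SH library held 482275 reads on genes and the YK library 431705, spread over 16220 and 16245 genes. Median-of-ratios size factors were 1 and 1, and reads were therefore compared as deposited. Scaling by total reads would add 0.16 to every log2 ratio of YK to SH. Green leaf markers were well covered. Reads of PSBX, a photosystem II subunit (Thhalv10002124m.g), numbered 492 in SH and 560 in YK, although another locus with the same hit (Thhalv10002862m.g) had 0 and 1. FBA1, a plastid aldolase, had 683 and 843, PSAP (hit AT2G46820), a thylakoid membrane protein, had 441 and 327, and the photosystem I subunit PSAE-2 had 28 and 42. For Actin2 (Thhalv10020906m.g), against which the study scaled its PCR, SH had 228 reads and YK 210. None of these genes was called, by the rule given below for all genes. For PSAP and FBA1 only the size of the ratio prevented a call. PSAP had more reads in SH (log2 ratio -0.43, interval -0.64 to -0.22, exact binomial adjusted p = 0.00100). FBA1 had more in YK (log2 ratio 0.30, interval 0.16 to 0.45, exact binomial adjusted p = 0.00104). The interval of the well covered PSBX locus (0.009 to 0.36) also excluded equal reads, but its adjusted p was 0.218. The intervals of PSAE-2 and Actin2 included equal reads.

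All 7 genes had reads in both libraries, as did 81.5% of all genes in the table. The reads of CAC2, KAS1, MOD1 and SSI2 differed between SH and YK by no more than counting error, while the dehydratase gene HAD1 and the elongase gene KCS10 had more reads in SH, without passing the adjusted test. Added up, the 7 genes had 278 reads in SH and 270 in YK. The log2 ratio of YK to SH was -0.04 (95% interval -0.29 to 0.20) with reads as deposited. As shares of total reads the sums were 0.0576% in SH and 0.0625% in YK, which puts YK higher. With total reads as the scaling the log2 ratio was 0.12 (interval -0.13 to 0.36). For the 6 plastid genes alone the sums were 232 and 245 reads (log2 ratio 0.08 with reads as deposited, interval -0.19 to 0.34). In whole rosettes, fewer cells that express a gene and less RNA per cell cannot be told apart. Reads of both libraries were placed on the SH genome, and a loss of YK reads where the accessions differ was not tested.

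**Figure D1:**
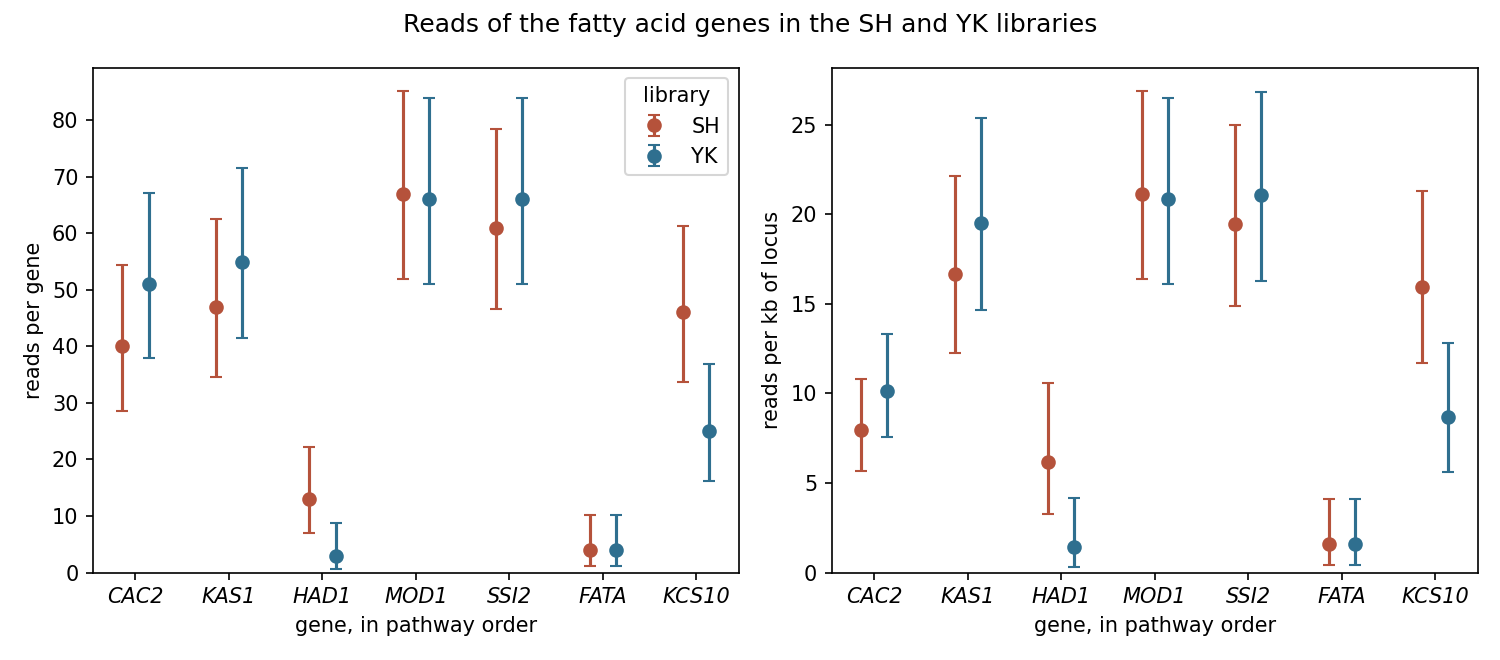
Reads per gene (left) and reads per kb of locus (right) of the 7 genes in pathway order, for the SH and YK libraries. Points are the measured values of 1 library each and bars are exact 95% Poisson intervals. MOD1 and SSI2 lie highest in both libraries (61 to 67 reads), FATA has 4 reads in each, and HAD1 and KCS10 lie lower in YK.

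CAC2 (Thhalv10002478m.g, scaffold 4 from 403130 to 408158) encodes the biotin carboxylase subunit of plastid acetyl-CoA carboxylase, which carries out the committed step of the pathway. It had 40 reads in SH and 51 in YK, and YK was therefore the higher library by count. The log2 ratio was 0.35 (interval -0.28 to 0.99), within counting error of equal reads (exact binomial adjusted p = 0.697 over all genes).

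KAS1 (Thhalv10000874m.g, scaffold 20 from 1725095 to 1727916), the 3-ketoacyl-ACP synthase that condenses malonyl units onto the growing chain, had 47 reads in SH and 55 in YK. The log2 ratio was 0.22 (interval -0.36 to 0.82, exact binomial adjusted p = 0.865). The difference between the libraries did not exceed counting error.

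MOD1 (Thhalv10002561m.g, scaffold 4 from 1931254 to 1934420) encodes enoyl-ACP reductase, the enzyme of the last reduction in each round. With 67 reads in SH and 66 in YK it was the best covered of the 7 genes, and the libraries stood level. Its log2 ratio was -0.02 (interval -0.53 to 0.49, exact binomial adjusted p = 1), and the sign turned to 0.14 with total reads as the scaling.

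SSI2 (Thhalv10001477m.g, scaffold 22 from 188954 to 192086), the stearoyl-ACP desaturase of the plastid, had 61 reads in SH and 66 in YK, slightly more in YK. The log2 ratio was 0.11 (interval -0.41 to 0.64, exact binomial adjusted p = 1). For CAC2, KAS1, MOD1 and SSI2 a 2-fold difference in either direction lay outside the 95% interval, except that the upper bound for CAC2 was 1.15 with total reads as the scaling and 1.04 with total reads without the 5 most abundant genes. These intervals do not show that the 4 genes are expressed alike in the accessions, since the spread between plants was not measured.

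FATA (Thhalv10002587m.g, scaffold 4 from 5175547 to 5178040), the acyl-ACP thioesterase that in A. thaliana acts mainly on oleoyl-ACP, had 4 reads in SH and 4 in YK. With 8 reads together it was below the 10 reads required for a test. The interval of its log2 ratio ran from -2.42 to 2.42, so a difference of as much as 5-fold in either direction was not detectable at this depth. Both counts were close to the floor of 3 counts, the number that a count of 0 would still allow.

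HAD1 (Thhalv10000316m.g, scaffold 15 from 742695 to 744798), the dehydratase that removes water from the 3-hydroxyacyl chain, had 13 reads in SH and 3 in YK. SH was the higher library by 4.33-fold, and the count of YK was no higher than the floor of 3 counts. The log2 ratio was -1.95 with a wide interval (-4.57 to -0.25). In the exact binomial test the unadjusted p was 0.0213 and the p adjusted over all genes 0.146, so the gene was not called. With 16 reads together a call would have needed a split of 14 to 2 or more.

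KCS10 (Thhalv10001951m.g, scaffold 12 from 6677986 to 6680866) is known in A. thaliana as FIDDLEHEAD, a 3-ketoacyl-CoA synthase of the epidermis whose loss lets young organs fuse. It had 46 reads in SH and 25 in YK, 1.84-fold more in SH. The log2 ratio was -0.87 (interval -1.64 to -0.15). Its exact binomial p was 0.0170 before and 0.124 after adjustment over all genes, and the gene was not called. With total reads as the scaling the interval reached equality (-1.48 to 0.01). A call at its 71 reads would have needed a split of 48 to 23 or more.

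**Figure D2:**
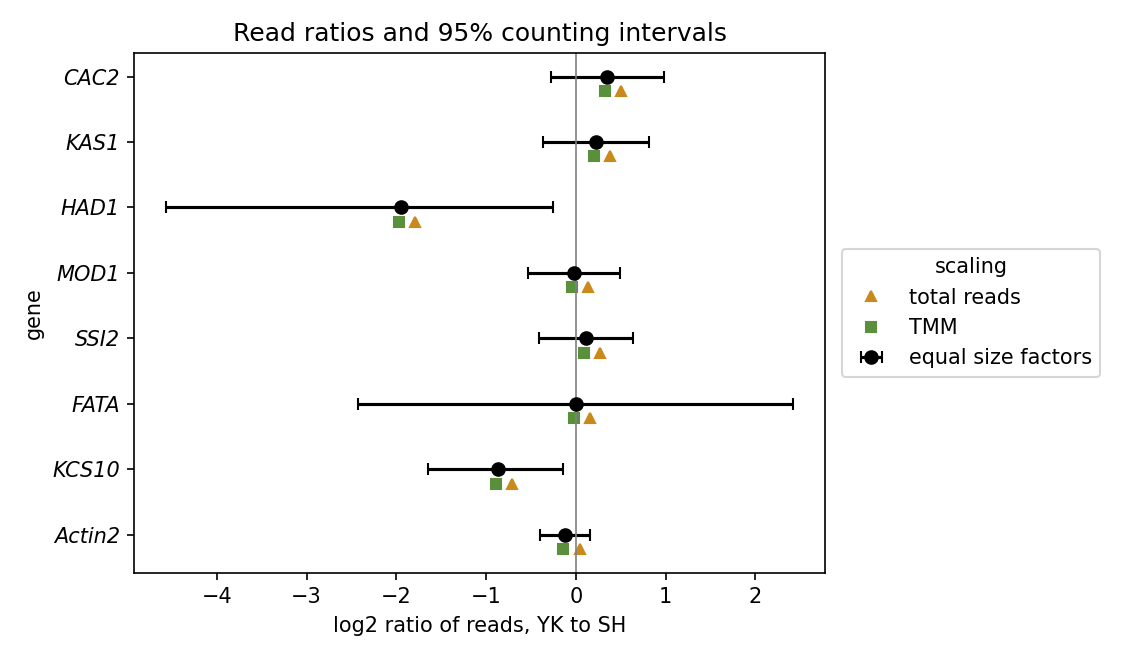
Log2 ratio of YK to SH reads for the 7 genes and Actin2, with 95% counting intervals (black bars) under equal size factors. Triangles and squares give the value with total reads and with TMM scaling. The intervals of HAD1 (-4.57 to -0.25) and KCS10 (-1.64 to -0.15) lie below 0, and those of the other genes include it.

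A gene was called when its adjusted p was under 0.05 and its log2 ratio at least 1 in size. That held for 0 of the 6 fatty acid genes that had 10 or more reads, against 6.62% of all 10036 genes tested, and 2 of the 6 had an unadjusted exact binomial p under 0.05. The count was also 0 with total reads as the scaling (7.45% of all genes tested called), with TMM (7.04%) and with total reads without the 5 most abundant genes (6.93%). With edgeR's exact test it was 0 when the coefficient of variation was assumed to be 0.2 (1.99% of all genes called), where the adjusted p was 0.532 for HAD1 and 0.797 for KCS10. At 0.4 (0.359% called) it was again 0, and the adjusted p was 1 for both. By the unadjusted 95% interval alone, 2 of the 6 had more reads in SH, HAD1 and KCS10, and 0 had more in YK. Over all genes tested that held for 10.4% in the direction of SH and 8.75% in the direction of YK. With total reads as the scaling only HAD1 was left on the side of SH, as were 7.65% of all genes tested, while HAD1 and KCS10 both stayed there without the 5 most abundant genes (9.51%) and with TMM (11%). On the side of YK there were 0 of the 6 under each of these scalings, against 12.8%, 10% and 8.29% of all genes tested in that order. The median log2 ratio was 0.05 over the 6 genes and 0 over all genes tested. Median-of-ratios scaling centers the ratios near 0, so the latter is no separate observation. Total reads as the scaling would add 0.16 to both.

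Genes of similar depth put both values in context. Among 2379 genes with at least 80% of the reads of HAD1, and of whose reads HAD1 had at least 80%, 79 (3.32%) had a log2 ratio as low as HAD1 or lower, and the interval of 5.38% lay on the side of SH. For KCS10, 98 of 1013 genes (9.67%) were as low or lower, and the interval of 12.6% lay on the side of SH. CAC2, the member with the most YK reads relative to SH, was level with or above 74.3% of the 832 genes of its depth, itself included. All of the 7 genes thus lay between the 5th and the 95th percentile of genes of like depth, except HAD1.

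**Figure D3:**
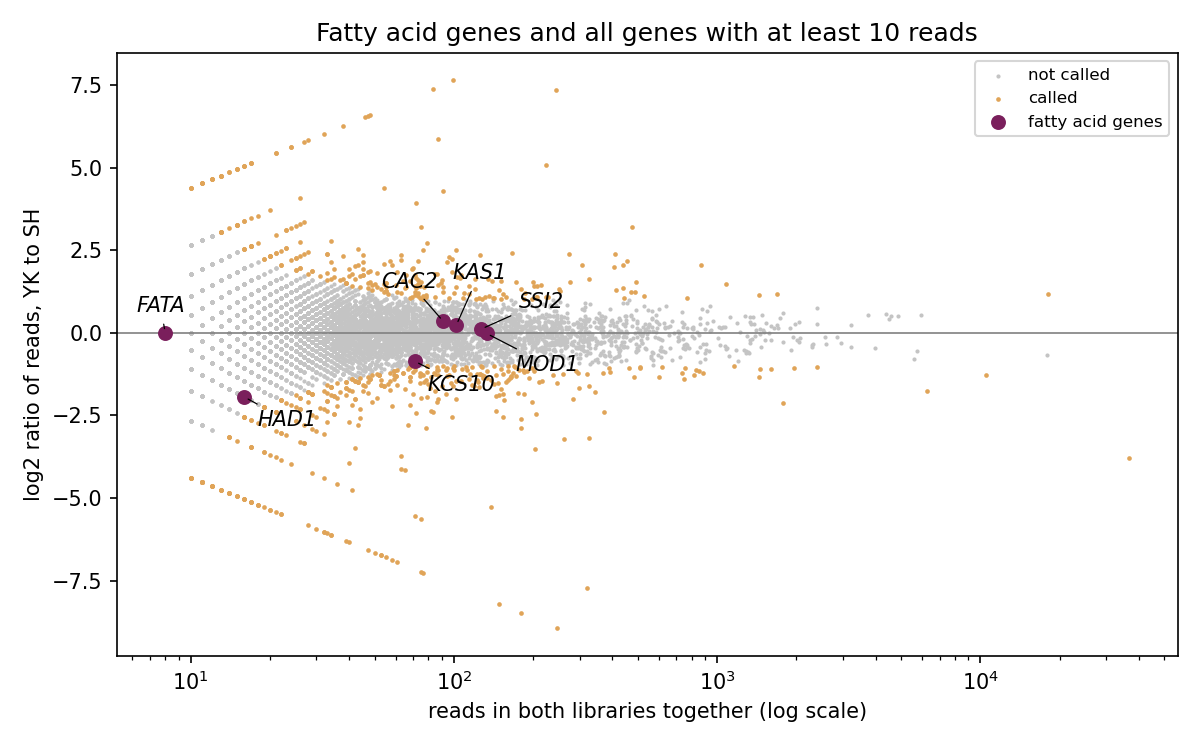
Log2 ratio of YK to SH reads against the reads of both libraries together (log scale) for the genes with at least 10 reads, and for FATA with 8. Orange points are the genes called by the exact binomial test and purple points are the 7 genes. CAC2, KAS1, SSI2 and MOD1 lie near 0, while KCS10 (-0.87) and HAD1 (-1.95) lie lower within the grey points.

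Ratios between genes within a library do not depend on how the libraries are scaled. The balance between single genes, not whole steps, was therefore compared across SH and YK for all 21 pairs of the 7 genes. Reads were taken here as counted, while the log2 ratios of single genes had 0.5 reads added to each count. Among the 6 pairs of CAC2, KAS1, MOD1 and SSI2, the 95% interval of the ratio of ratios included equality in every pair, with log2 values up to 0.37 for CAC2 over MOD1 (interval -0.45 to 1.197). In 7 of the 21 pairs it excluded equality, and each of these set HAD1 or KCS10 against one of those 4 genes. The share among pairs of all genes was not computed. Of all single genes tested, 19.2% had an interval that excluded equal reads, which is a different measure and no baseline for pairs. The log2 ratio of CAC2 over KCS10 was 1.23 higher in YK than in SH (interval 0.24 to 2.23), that of KAS1 over KCS10 1.11 higher (0.14 to 2.08) and that of SSI2 over KCS10 0.99 higher (0.07 to 1.93). The log2 ratio of MOD1 over KCS10 was 0.86 higher, but its interval included equality (-0.05 to 1.78).

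HAD1 showed the larger shifts with the wider intervals. The log2 ratio of CAC2 over HAD1 was 2.47 higher in YK (interval 0.45 to 4.99) and that of KAS1 over HAD1 2.34 higher (0.34 to 4.86). Between HAD1 and KCS10 themselves the difference was within error (-1.24, interval -3.80 to 0.82). These intervals are not adjusted for the 21 pairs, and the pairs share their genes. The 4 genes were set apart from HAD1 and KCS10 by the same reads, so the pairs restate the single ratios and add no separate result.

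Levels of different genes were set side by side only per length, as reads per kb of locus, where the locus includes introns. In SH the order was MOD1 (21.2 reads per kb), SSI2 (19.5), KAS1 (16.7), KCS10 (15.97), CAC2 (7.95), HAD1 (6.18) and FATA (1.60). The intervals of neighbours in this order overlapped, except those of KCS10 (11.7 to 21.3) and CAC2 (5.68 to 10.8). In YK the order was SSI2 (21.1), MOD1 (20.8), KAS1 (19.5), CAC2 (10.1), KCS10 (8.68), FATA (1.60) and HAD1 (1.43). There the neighbours without overlap were KAS1 (14.7 to 25.4) and CAC2 (7.55 to 13.3), and KCS10 (5.62 to 12.8) and FATA (0.437 to 4.11).

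By reads per kb, MOD1, SSI2 and KAS1 thus formed the upper group in both libraries and FATA stood at or next to the bottom. By the same measure KCS10 stood with the upper group in SH and with CAC2 in YK. These places depend on the locus span, introns included, and the intervals cover the reads only. CAC2 has the longest locus of the 7 (5029 bp) and HAD1 the shortest (2104 bp). Among all genes in the table, reads per kb placed MOD1 at the 88.1 percentile in SH and 88.8 in YK, and KCS10 at 85.1 and 76.5. HAD1 went from the 69.8 percentile in SH to 36.2 in YK, and FATA stood at 39.0 and 38.7.

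KCS10 made up 16.5% of the reads of the 7 genes in SH (interval 12.4 to 21.4%) and 9.26% in YK (6.08 to 13.4%). HAD1 made up 4.68% in SH (2.51 to 7.86%) and 1.11% in YK (0.230 to 3.21%). MOD1 made up 24.1% and 24.4%, and SSI2 21.9% and 24.4%. The shares of KCS10 and HAD1 were the lower ones in YK, although the intervals of both libraries overlapped.

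Positions were compared among the 17888 loci with reads, and annotated loci without reads were not examined. The HAD1 locus overlaps Thhalv10000134m.g, from 743850 to 746896 on scaffold 15, over 949 bp or 45.1% of its length. The other 6 loci overlap no other locus with reads, while 6.67% of all loci with reads overlap another. The overlapping locus has the hit MIPS2, an inositol phosphate synthase, and had 4 reads in SH and 5 in YK. The counting in union mode assigns a read that touches exons of both loci to neither, and strand was not kept. How much of the overlap is exonic is not known here, and its part in the low count of HAD1 was not tested.

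On the other side, XLOC_009420, a locus added by the authors from their own assembly, ends 479 bp before HAD1 (scaffold 15, 741288 to 742215) and has no A. thaliana hit here. It had 40 reads in SH and 13 in YK. Its log2 ratio was -1.58 (interval -2.65 to -0.69), and it was called with more reads in SH (exact binomial adjusted p = 0.00455). Calls were frequent among such loci, at 44.6% of 157 in either direction and 33.1% in the direction of SH. The call was lost with edgeR's exact test with 0.2 as the assumed coefficient of variation (adjusted p = 0.234). Taken from the reads as counted, without the 0.5 reads added for single genes, the log2 ratios of HAD1 and XLOC_009420 differed by -0.49. The interval ran from -3.15 to 1.68, within counting error, and whether the 2 loci belong to the same transcript was not tested.

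**Figure D4:**
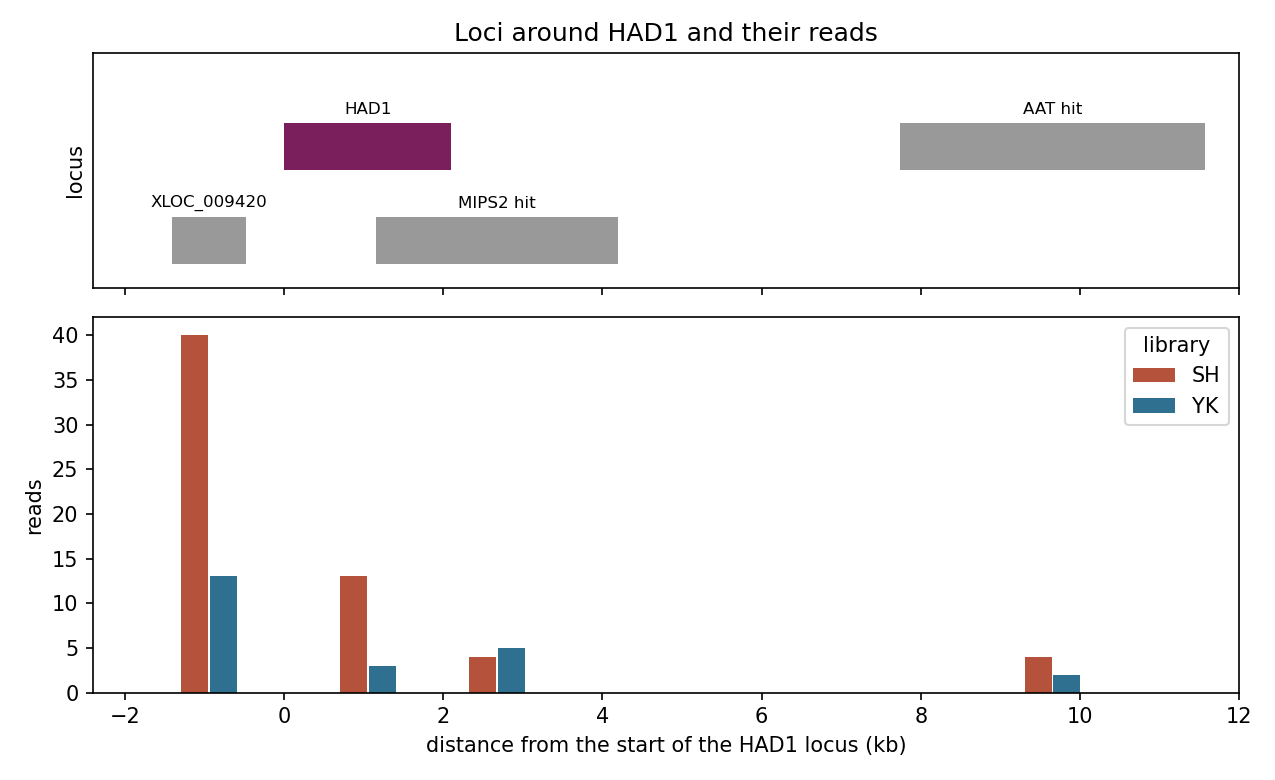
Loci of the table around HAD1 (top, as spans by distance in kb from the start of the HAD1 locus) and their reads in SH and YK (bottom, 1 library each). XLOC_009420 (40 and 13 reads) and HAD1 (13 and 3) have more reads in SH, while the overlapping MIPS2 locus has 4 and 5 and the AAT locus 4 and 2.

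The nearest loci with reads on either side of the other genes gave no call. To the right of MOD1 lay HCF101 (Thhalv10002483m.g), a gene of iron-sulfur cluster supply in the chloroplast, with 62 reads in SH and 69 in YK. To the right of FATA lay RIN4 (Thhalv10002991m.g), an immune regulator, with 76 and 95. The nearest loci with reads to KCS10 were 243948 and 440096 bp away, with 19 and 16 reads (Thhalv10001942m.g) and 5 and 7 reads (Thhalv10001947m.g). The nearest loci with reads to KAS1 had the hits AT5G46280 and AT5G46295, numbered on either side of its own AT5G46290, and the nearest on the left of MOD1 (AT2G05990) had AT2G06000. In contrast, the nearest loci with reads to CAC2, at 209134 and 345787 bp, had hits on other A. thaliana chromosomes.

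Each of the 7 genes had other genes of like level in both libraries, though no such count was made for a typical gene. Within a distance of 0.25 on the log2 scale of SH and YK reads there were 38 other genes for HAD1, 59 for KCS10 and 124 to 138 for the rest. Among 737 genes with a symbol, the nearest was RHA2B (45 reads in SH and 23 in YK) for KCS10 and CYP709B2 (11 and 3) for HAD1. It was UBC6 (39 and 48) for CAC2, SNRNP-G (47 and 56) for KAS1, CLPP4 (67 and 68) for MOD1 and HCF101 (62 and 69) for SSI2. FATA was matched exactly by 5 genes, of which DBP1 is the first by identifier. A likeness over 2 libraries is a likeness of level only.

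Names were available for few other genes of lipid metabolism. Of 150 A. thaliana genes in 8 lists, from acetyl-CoA supply to beta-oxidation, 17 were reached by a hit, or 11.3%, and 7 of these are the genes above. The other 10 had 145 reads in SH and 87 in YK together. Of them, 6 had at least 10 reads, and 1 was called with more reads in SH (3.88% of all genes tested) and 0 with more in YK (2.74%). The median log2 ratio of those 6 was -0.96, against 0 over all genes tested. Of all 10, 7 had more reads in SH, but some of these had too few reads for a ratio. The share of all genes with more reads in SH was not computed. Because hits were known for so small a part of the lists, these counts do not describe the pathways.

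The called gene was LTPG2 (Thhalv10002676m.g), a lipid transfer protein anchored at the cell surface that takes part in wax export in A. thaliana. Its reads numbered 31 in SH and 11 in YK. The log2 ratio was -1.45 (interval -2.64 to -0.46, exact binomial adjusted p = 0.0331). The call was lost with total reads as the scaling (exact binomial adjusted p = 0.0654) and with edgeR's exact test at the same assumed spread (adjusted p = 0.416).

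Long-chain acyl-CoA synthetases activate free fatty acids before elongation or oxidation. For LACS8 (Thhalv10002409m.g) SH had 30 reads and YK 13 (log2 ratio -1.18, interval -2.27 to -0.22), and LACS1 (Thhalv10001346m.g), which in A. thaliana acts on very-long-chain acids for wax and cutin, had 39 and 23 (log2 ratio -0.75, interval -1.57 to 0.02). Neither passed the test, with exact binomial adjusted p = 0.107 for LACS8 and 0.280 for LACS1.

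Of the mitochondrial acyl carrier proteins, MTACP1 had 22 reads in SH and 20 in YK, and MTACP3 had 11 and 3, with an interval that just included equality (-4.36 to 0.05). CER4, the acyl-CoA reductase that makes primary alcohols of wax in A. thaliana, had 7 and 12 reads (log2 ratio 0.74, interval -0.68 to 2.36). The sphingoid base desaturase gene SLD2, the hydroxylase gene CYP86A8 and the reductase genes FAR4 and FAR5, which serve suberin in A. thaliana, had at most 5 reads each in both libraries together, too few for a ratio.

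**Figure D5:**
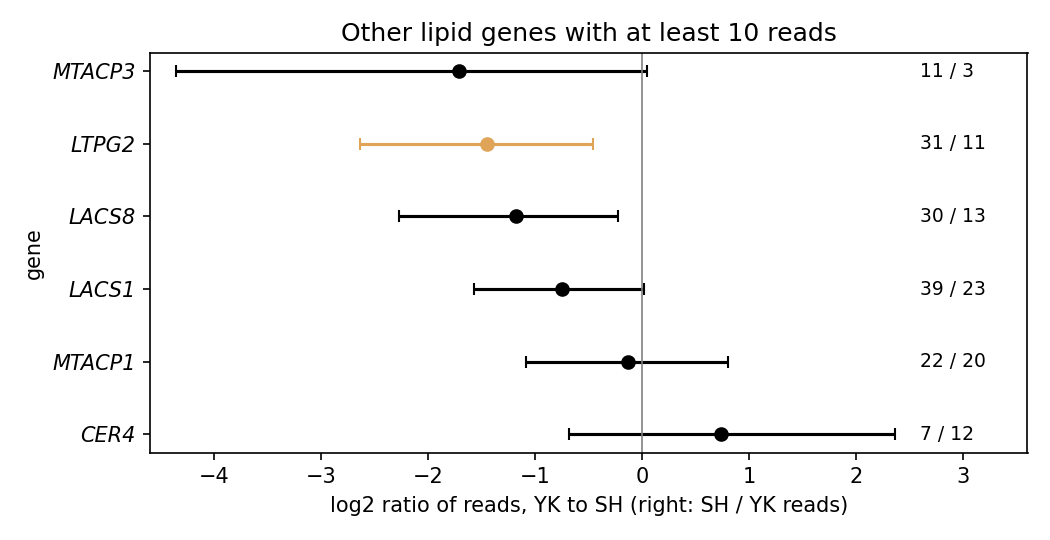
Log2 ratio of YK to SH reads with 95% counting intervals for the 6 other lipid genes with at least 10 reads. The reads in SH and YK stand at the right. LTPG2, in orange, is the called gene, and CER4 alone has more reads in YK (12 against 7).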

How the data were processed

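Polyadenylated RNA of pooled rosettes was sequenced by pyrosequencing without keeping strand. After trimming, the authors placed reads on the SH genome (Phytozome v9.1) with GMAP according to the methods and GSNAP according to the submitters' processing notes. They counted unique reads per gene with HTSeq 0.5.4p5 in union mode, over an annotation to which Cufflinks and BEDTools 2.17.0 had added loci. The deposited counts are raw reads. The deposited fold ratio, p-value and adjusted p-value are the authors' own comparison, made with DESeq 1.14.0 without replicates, and were not used. The methods describe more biological replicates than the 1 column of reads per accession, so each accession was treated as 1 library. Unique mapping removes reads that fit several gene copies, and reads without molecular identifiers cannot separate copies of a molecule, so intervals and floors cover counting error only.

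From the counts (17888 genes, 1 blank row left out), a two-sided exact binomial test compared YK reads with equal shares for genes with at least 10 reads together, with Benjamini-Hochberg adjustment over all of them. A call required the adjusted p to be under 0.05 and a log2 ratio, after adding 0.5 reads to each count, no smaller than 1 in size. Intervals are 95% Clopper-Pearson (shares and ratios), Poisson (levels) and conditional exact (ratios of ratios). Folds, intervals and ratios of ratios use the reads without the 0.5 added. Depth was 482275 and 431705 reads. Alternatives were other scalings, minimum reads, fold rules, reads added, sums without each gene, and edgeR 4.0.16 with an assumed spread. Scripts used Python 3.11.15, SciPy 1.17.1 and R 4.3.3, and were tested on simulated data.

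Genes named are the 7 genes, all genes of the 8 lipid lists reached by a hit, the nearest loci with reads on either side of the 7 and those overlapping them, Actin2, leaf markers and the nearest gene by level. Members and lists were chosen with earlier results of these data known. Hits come from the first 1998 rows of a table of the study. Matches of gene IDs to the RefSeq table numbered 0, and no sequence was used here.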

Additional observations from a re-analysis of the deposited data

How the results depend on the processing

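The count of 664 called genes (389 with more reads in SH, 275 in YK) became 200 and 36 with edgeR's exact test for coefficients of variation assumed at 0.2 and 0.4, where the added spread is built into the test, and 567 to 990 under the other settings. With total reads as the scaling 310 of 748 calls were on the side of SH. None of the 6 tested fatty acid genes was called under any scaling, number of reads added or edgeR setting run. Signs held under all scalings and reads added for CAC2 (0.32 to 0.51), KAS1 (0.20 to 0.38), SSI2 (0.09 to 0.27), HAD1 (-2.07 to -1.58) and KCS10 (-0.89 to -0.71). MOD1 turned to 0.14 with total reads and 0.034 without the 5 most abundant genes, and Actin2 to 0.041 with total reads. The summed ratio of the 7 genes (-0.04) took either sign, from -0.12 to 0.12, and its interval included equality under every setting run. An order by coding length was not run, since no gene matched a RefSeq protein. No paired analysis was possible because each accession has 1 library. Depth limits FATA and HAD1 most.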
